A study of Rattus norvegicus with 2 samples.

Results

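The genes described here are 10 endothelial genes, Cdh5, Cldn5, Sox17, Emcn, Plvap, Aqp1, Efnb2, Gja4, Bmx and Mecom, out of 32623 genes listed in the count table. They were chosen by name as genes of endothelial identity, of arterial endothelium and of capillary or fenestrated endothelium, and all 10 were listed. Single-cell libraries were made on the 10x Genomics platform from common carotid arteries of Sprague-Dawley (SD) rats labelled as 12 weeks old. The control group was the untreated left arteries and the case group the right arteries of the same 2 male rats, taken 28 days after balloon injury, in which an inflated balloon catheter is drawn through the vessel and strips its endothelium. The external carotid branch was ligated on the injured side. Each library pooled the arteries of both rats, so each group is 1 library and no test between groups was possible.

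Endothelial cells (ECs) line the inside of every vessel and differ with the kind of vessel. Cdh5 (VE-cadherin) joins ECs at adherens junctions, Cldn5 seals their tight junctions and Sox17 is a transcription factor of arterial ECs. Efnb2 is the ephrin ligand that marks arteries, Gja4 (connexin 37) forms gap junctions in arterial ECs and Bmx is a kinase of arterial endothelium. Plvap builds the diaphragms of fenestrae and caveolae in capillaries and venules, Emcn is a sialomucin of venous and capillary ECs, and Aqp1 is the water channel of many capillary beds. Mecom encodes a zinc finger transcription factor with a role in arterial ECs.

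Promoter sequence from RefSeq (build GRCr8) was matched by symbol for 8 of the 10 genes, without Cdh5 and Sox17. The 250 bases before the annotated start are shown for 4 genes. Emcn and Plvap define the division of ECs described further on. Cldn5 and Gja4 were higher in case ECs without Plvap and Emcn than in those with them. In control ECs this held for Gja4. It did not hold for Cldn5, at 699 CPM with and 321 without, but 1 cell gave 53 of the 61 UMIs in the set with them. Without that cell Cldn5 was at 102 CPM in that set, on 8 UMIs. Capitals mark AGGAAG or, read on the other strand, CTTCCT, a core bound by ETS factors such as Erg and Fli1.
Emcn, chr2:228564289-228564538, plus strand: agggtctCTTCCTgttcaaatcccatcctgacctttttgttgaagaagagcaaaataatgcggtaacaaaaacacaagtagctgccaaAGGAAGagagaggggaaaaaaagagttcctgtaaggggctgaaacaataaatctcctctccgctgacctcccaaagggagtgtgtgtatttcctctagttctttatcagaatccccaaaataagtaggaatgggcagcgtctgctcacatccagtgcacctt
Plvap, chr16:18231280-18231529, minus strand: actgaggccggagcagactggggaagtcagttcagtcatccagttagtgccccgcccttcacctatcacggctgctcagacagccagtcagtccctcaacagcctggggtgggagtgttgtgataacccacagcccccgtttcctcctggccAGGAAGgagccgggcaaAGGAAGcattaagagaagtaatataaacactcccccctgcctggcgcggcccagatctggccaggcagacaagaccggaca
Cldn5, chr11:95718599-95718848, minus strand: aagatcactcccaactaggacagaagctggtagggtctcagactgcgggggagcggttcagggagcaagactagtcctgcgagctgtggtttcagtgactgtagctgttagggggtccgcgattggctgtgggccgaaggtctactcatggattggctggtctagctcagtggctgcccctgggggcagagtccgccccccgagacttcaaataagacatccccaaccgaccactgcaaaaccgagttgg
Gja4, chr5:144920325-144920574, minus strand: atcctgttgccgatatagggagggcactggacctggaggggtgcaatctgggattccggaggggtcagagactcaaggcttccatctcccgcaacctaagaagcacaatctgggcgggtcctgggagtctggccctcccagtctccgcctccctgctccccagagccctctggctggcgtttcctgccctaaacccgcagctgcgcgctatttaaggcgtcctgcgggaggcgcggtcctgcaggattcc
The motif was found in 3 of the 8 sequences, those of Emcn, Plvap and Aqp1, and in 29.5% of all 33469 RefSeq promoter windows of the same length. The windows of Cldn5 and Gja4 hold neither form of these letters. Other forms around GGAA or TTCC were not searched, and the window of Gja4 holds TTCC, so a lack of ETS sites was not shown.

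Cells were put in classes by marker genes, none of them among the 10 genes. A cell was endothelial-gated when the 12 endothelial markers (Vwf, Tie1, Tek, Kdr, Egfl7, Ecscr, Robo4, Nos3, Erg, Mmrn2, Ptprb and Flt1) gave at least 10 UMIs per 10000. A UMI stands for 1 captured RNA molecule. The control library held 24968329 UMIs in 3321 barcodes and the case library 28232614 in 5656, with medians of 5981 and 4778 per barcode. Of these, 2742 control and 4930 case cells were kept, and 21 barcode sequences occurred in both libraries. ECs were 56 control cells, 2.04% (1.55 to 2.64) of the kept ones, and 249 case cells, 5.05% (4.46 to 5.70). Their median depths were 6981.5 and 3981 UMIs. Of the 12 endothelial markers 11 were detected in the ECs of both libraries, with Vwf in 92.9% of control and 77.9% of case ECs, and Robo4 was at 0 in both. All 6 markers of smooth muscle were also found there, at 8.07 UMIs per 10000 in control and 8.38 in case ECs, against 216 and 177 in vascular smooth muscle cells (VSMCs). Levels are given as CPM, for which UMIs were summed over the cells of a class and scaled to 1000000. Intervals in parentheses are exact 95% intervals, which cover counting error only and not differences between cells or between rats.

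Among the 5 classes defined by a single gate (ECs, VSMCs, fibroblasts, macrophages and Schwann cells), all 10 genes had their highest level in ECs in both libraries, and they were of 2 kinds. Cells outside these classes were not always lower. Gja4 was at 55.3 CPM in the 531 case cells that passed no gate, against 40.8 in case ECs, and Efnb2 at 250.2 in the 333 ungated control cells, against 216 in control ECs. Cdh5, Cldn5, Sox17, Emcn, Plvap and Bmx were nearly restricted to ECs, whereas Aqp1, Efnb2, Mecom and Gja4 were shared with VSMCs or fibroblasts. Cdh5 was at 363 CPM in control and 708 in case ECs and at 3.33 or less in VSMCs, fibroblasts and macrophages. Cldn5 was at 399 and 148 CPM in ECs and at most 0.363 in VSMCs and fibroblasts, and Sox17 at 239 and 203 in ECs and at most 0.605 in VSMCs and fibroblasts. Both had 0 UMIs in macrophages and Schwann cells. With few cells of these classes, a count of 0 allows up to 9.99 CPM in control and 5.08 in case macrophages, and up to 29.7 and 18.3 in Schwann cells. Emcn was at 46.9 CPM in control ECs on 20 UMIs and at 134 in case ECs. Its 0 UMIs in control VSMCs allowed up to 0.229 CPM, and its level in control ECs was 205-fold above that limit. With the counting error of the 20 UMIs included, the exact lower bound of the ratio was 151-fold. Plvap was at 150 and 292 CPM in ECs, and its highest measured value in the other 4 classes was 5.08 in case macrophages, on 3 UMIs. Bmx was not counted once in VSMCs, fibroblasts, macrophages or Schwann cells of either library. Against the limit that 0 counts in VSMCs allow, it was 266-fold higher in control ECs and 85.7-fold higher in case ECs. With the counting error in ECs included, the exact lower bounds of these ratios were 201-fold and 63.7-fold.

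Aqp1 had nearly the same level in VSMCs as in control ECs, 228 against 253 CPM, a ratio of 1.11 (0.91 to 1.35). In the case library the levels were 213 in VSMCs and 367 in ECs, 1.72-fold (1.55 to 1.91) apart. Efnb2 was at 192 CPM in VSMCs and 216 in ECs of the control group, a ratio of 1.12 (0.90 to 1.38), and at 210 and 277 in the case group, where the ratio was 1.32 with a lower bound of 1.17. The 2 genes were thus not separated between ECs and VSMCs by counting error in the control group, and were separated in the case group. Mecom stood at 48.4 CPM in control VSMCs against 65.7 in ECs, 1.36-fold (0.89 to 1.98), and at 51.5 against 145 in the case group, 2.82-fold (2.37 to 3.34). Gja4 was at 91.5 CPM in control ECs and 19.8 in fibroblasts, 4.62-fold (3.17 to 6.57) apart. In the case group it was at 40.8 in ECs and 22.8 in VSMCs, 1.79-fold (1.29 to 2.44) apart. Aqp1 was found in 62.1% of control and 62.0% of case VSMCs, and Efnb2 in 57.7% and 56.9%. The part that the low VSMC marker RNA in ECs, given above, has in these endothelial levels was not tested.

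**Figure D1:**
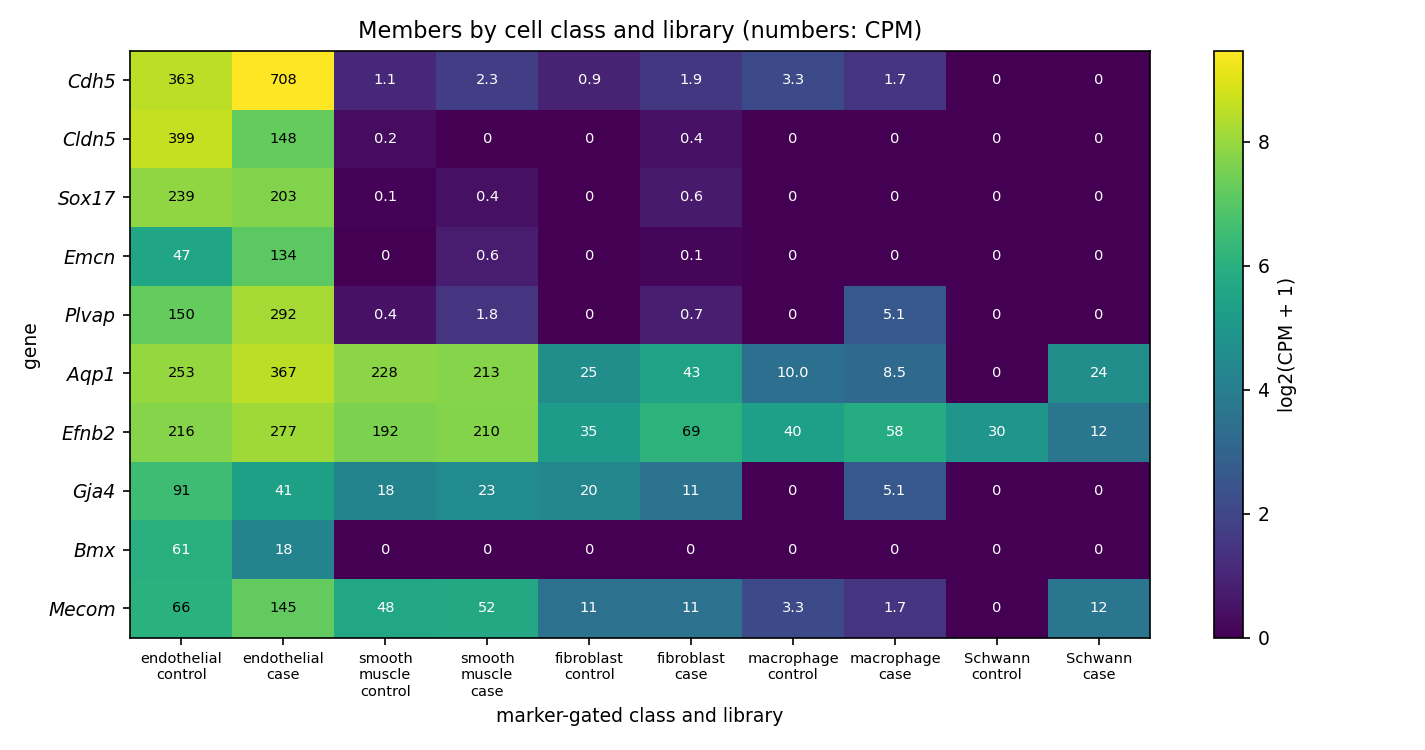
Level of each gene (rows) in each marker-gated class of each library (columns), as CPM written in the cell and log2(CPM + 1) as colour. The 2 endothelial columns hold the highest value of every row, from 18 CPM (Bmx, case) to 708 (Cdh5, case), and Aqp1, Efnb2 and Mecom are also seen in smooth muscle.

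The endothelial change from the control to the case group went both ways within the list. Emcn and Mecom were at least 2-fold higher in case ECs and Cldn5 and Gja4 at least 2-fold lower. Of these calls, that of Mecom was lost, at 0.81 (0.31 to 1.34), when clusters replaced the gates. That of Gja4 was lost with the TMM scaling named below, at −0.89 (−1.54 to −0.24). Cldn5 was under 2-fold, at −0.92 (−1.27 to −0.57), without the 1 control cell with most of its UMIs. Emcn, Mecom and Gja4 had intervals that held 0 after thinning to 1000 UMIs per cell. Genes were compared where the mean of both libraries was at least 50 CPM, and a change was counted when it was at least 2-fold with a counting interval that did not hold 0 on the log2 scale. By this rule 7.85% of 2712 genes were higher and 9.7% lower in case ECs, and of the 9 listed genes over the minimum 2 were higher and 2 lower. The median log2 change of the 9 was 0.53, and that of all 2712 was −0.10. Emcn, at 46.9 CPM in control ECs, and Gja4, at 40.8 in case ECs, passed the minimum only through the other library. The direction of Emcn and Gja4 was thus set in part by the filter. Scaling by TMM, a trimmed mean of gene ratios, added 0.27 to every log2 change in ECs. It took the median of the 2712 genes from −0.10 to above 0, so it did not centre them.

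Of the identity genes, Cdh5 gave 155 UMIs in control and 815 in case ECs. Its log2 change was 0.96 (0.71 to 1.22), a 1.95-fold difference that lay just under the 2-fold limit. It passed that limit with TMM, at 1.23, and after thinning to 1000 UMIs per cell, at 1.19 (0.49 to 1.98). A Cdh5 UMI was found in 44 of 56 control (78.6%) and 183 of 249 case ECs (73.5%). With each cell thinned to 1000 UMIs the shares were 23.2% (13.0 to 36.4) and 40.6% (34.4 to 46.9), so that the direction turned at equal depth. Cldn5 gave 170 UMIs in each library, from far fewer cells in the control group, and its log2 change was −1.43 (−1.75 to −1.12). A single control cell with 8989 UMIs held 53 of the 170 control UMIs of Cldn5, and without it the level was 280 CPM and the change −0.92 (−1.27 to −0.57), under 2-fold. Cldn5 was detected in 35 of 56 control ECs (62.5%) and 61 of 249 case ECs (24.5%), and in 26.8% and 9.64% after each cell was thinned to 1000 UMIs. The interval of Sox17 held 0, with a log2 change of −0.23 (−0.58 to 0.12), which was 0.03 with TMM.

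Of the 3 genes known from capillary and venous ECs, Emcn was past 2-fold and Plvap and Aqp1 were not. Emcn was found in 5 of 56 control ECs and in 76 of 249 case ECs, and in 7.14% and 13.7% after thinning to 1000 UMIs, and its log2 change was 1.51 (0.84 to 2.26). Plvap was found in 11 control and 92 case ECs, and in 10.7% and 20.5% after thinning, with a log2 change of 0.96 (0.57 to 1.37). That change was past 2-fold with TMM, at 1.23, and after thinning to 1000 UMIs, at 1.03 (0.04 to 2.21). Aqp1 changed by 0.53 (0.23 to 0.85) in ECs. Its change was −0.10 (−0.17 to −0.02) in VSMCs and 0.77 (0.52 to 1.03) in fibroblasts, where it went from 24.9 to 42.6 CPM.

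The arterial genes and Mecom went in different directions. Gja4 gave 39 UMIs in 21 control ECs and 47 in 30 case ECs, a log2 change of −1.16 (−1.81 to −0.51). Without the 1 cell with most Gja4 in each library, which held 10 UMIs in the control group, the change was −0.90 (−1.62 to −0.17) and under 2-fold. In VSMCs Gja4 changed by 0.30 (0.06 to 0.55), on 242 and 321 UMIs. Bmx went from 26 UMIs in 14 control ECs to 21 UMIs in 19 case ECs, or from 61.0 to 18.3 CPM, with a log2 ratio of −1.74 (−2.64 to −0.85), but its mean lay under the minimum of 50 CPM. The log2 change of Efnb2 was 0.36 (0.02 to 0.71), and it was found in 71.4% of control and 58.2% of case ECs. At 1000 UMIs per cell the shares were 17.9% (8.91 to 30.4) and 22.5% (17.5 to 28.2), the other way round with overlapping intervals. In fibroblasts, where Efnb2 stood at 35.5 and 69.1 CPM, its log2 change was 0.96 (0.76 to 1.17). The log2 change of Mecom was 1.14 (0.56 to 1.78), on 28 control and 167 case UMIs. Mecom was found in 35.7% of control and 40.2% of case ECs. In 1 random draw of 1000 UMIs per cell the shares were 12.5% (5.18 to 24.1) and 10.8% (7.27 to 15.4), with overlapping intervals. A separate draw to the same depth gave a log2 change of 1.35 (−0.32 to 3.70), so the draws do not settle the direction. In VSMCs the log2 change of Mecom was 0.09 (−0.06 to 0.25).

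**Figure D2:**
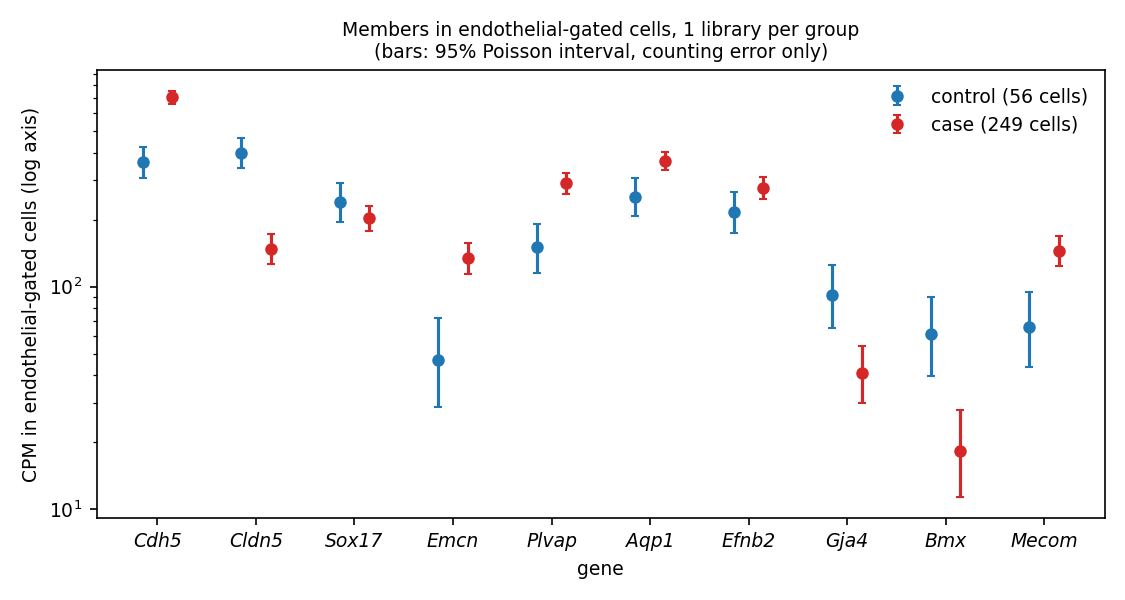
Level of each gene in endothelial-gated cells as CPM on a log axis, with 1 point per library (blue, control; red, case) and bars for the exact 95% Poisson interval. The intervals of the 2 libraries do not overlap for Cdh5, Emcn, Plvap, Aqp1 and Mecom, where the case point is higher, or for Cldn5, Gja4 and Bmx, where it is lower.

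ECs of the 2 libraries also differed in the shares of cells with Plvap or Emcn and with Gja4 or Bmx. Plvap or Emcn was present in 12 of 56 control ECs, 21.4% (11.6 to 34.4), and in 105 of 249 case ECs, 42.2% (36.0 to 48.6). With each cell thinned to 1000 UMIs the shares were 10.7% (4.03 to 21.9) and 27.3% (21.9 to 33.3). In VSMCs thinned alike Plvap was found in 0.0955% of 1047 control and 0.167% of 2402 case cells, and Emcn in 0 of both. Gja4 or Bmx without Plvap and Emcn was found in 25 control cells (44.6%) and 42 case cells (16.9%). Plvap or Emcn without Gja4 and Bmx was found in 9 control (16.1%) and 101 case cells (40.6%). Genes of both pairs were held by 3 control and 4 case cells, while 19 and 102 held none of the 4. How many cells would hold both pairs if they were detected independently was not tested. The shares of all these kinds rest on deeper control than case cells. With each cell thinned to 1000 UMIs, Gja4 or Bmx alone was found in 14.3% (6.38 to 26.2) of control and 4.02% (1.94 to 7.26) of case ECs, Plvap or Emcn alone in 10.7% and 27.3%, and both pairs in 0 cells of either library. The median number of the 10 genes detected in a cell was 4 in both libraries.

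The same division of ECs set most of the other genes apart in the case group. Case ECs with Plvap or Emcn had 1087 CPM of Cdh5, and case ECs without had 447, a log2 difference of 1.28 (1.07 to 1.49). Aqp1 was at 629 CPM in case ECs with Plvap or Emcn and 185 in those without, a difference of 1.77 (1.46 to 2.08). Cldn5 ran the other way, with 65.9 CPM in case ECs with Plvap or Emcn and 204 in those without (−1.63, −2.24 to −1.06), and so did Sox17, with 153 and 238 (−0.64, −1.06 to −0.23). Gja4 was at 10.6 CPM with and 61.7 without, and Bmx at 2.13 with, on 1 UMI, and 29.4 without. Efnb2 (259 and 290 CPM) and Mecom (149 and 143) did not differ beyond counting error between the 2 sets of case ECs. Their log2 differences were −0.16 (−0.50 to 0.17) and 0.06 (−0.40 to 0.52).

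In the control group the set with Plvap or Emcn was only 12 cells. Cdh5 was higher there as well, at 871 against 233 CPM, and Gja4 lower, at 11.5 on 1 UMI against 112. Aqp1 was at 275 and 248 CPM in control ECs with and without Plvap or Emcn, a log2 difference of 0.15 (−0.57 to 0.82). Cldn5 was at 699 CPM in the 12 cells and 321 in the other 44, but 53 of its 61 UMIs in the 12 cells came from the single cell named above. With that cell left out Cldn5 was at 102 CPM on 8 UMIs and Sox17 at 141 on 11.

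Compared between the libraries within each set, several changes differed from those of all ECs. The sets need not hold the same kinds of cells in both libraries. In cluster 9, an endothelial cluster described further on, Plvap was found in 7 of 55 control and 3 of 160 case cells. Which cells hold a Plvap or Emcn UMI also depends on depth, and cells with one had medians of 6948 UMIs in the control and 4118 in the case group. In ECs without Plvap and Emcn, Cdh5 changed by 0.94 (0.58 to 1.32), Mecom by 1.20 (0.51 to 1.96) and Efnb2 by 0.41 (0.02 to 0.81). Cldn5 changed by −0.65 (−1.03 to −0.28) there, Gja4 by −0.86 (−1.53 to −0.19) and Bmx by −1.27 (−2.20 to −0.35). Aqp1 was lower in the case group in these cells, at 185 against 248 CPM (−0.42, −0.83 to −0.00355), while in ECs with Plvap or Emcn it was higher, at 629 against 275 (1.19, 0.59 to 1.86). In ECs with Plvap or Emcn, Cdh5 changed by 0.32 (−0.03 to 0.69).

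**Figure D3:**
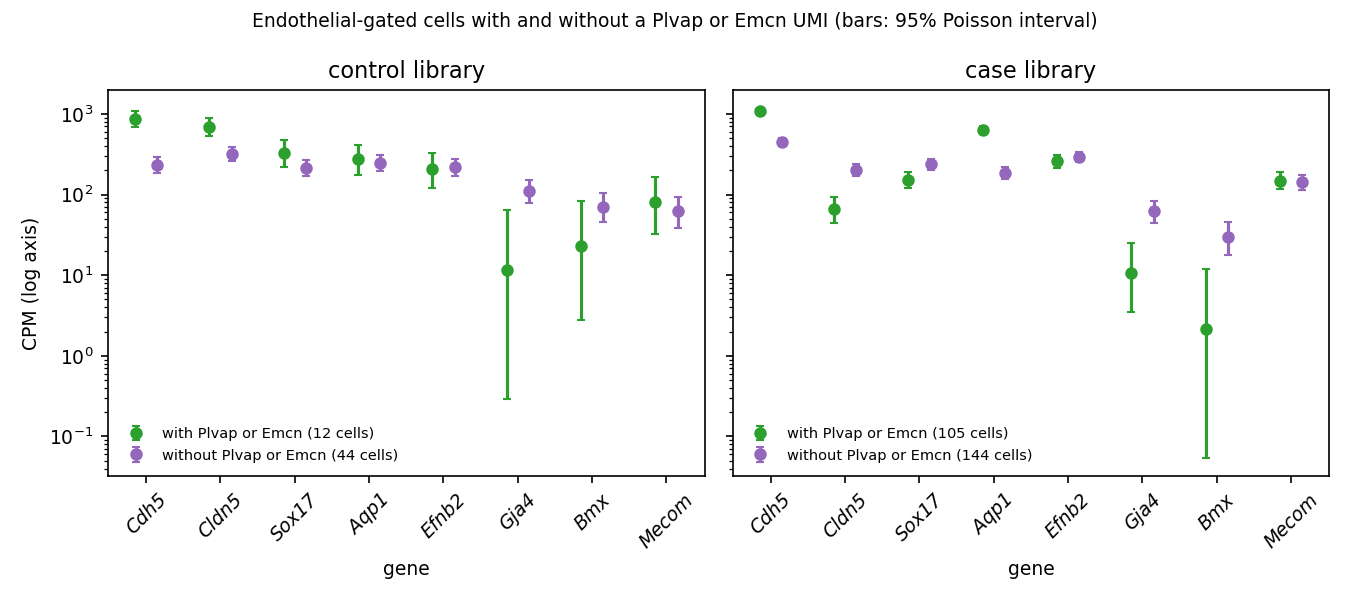
Level of the other 8 genes as CPM on a log axis in endothelial-gated cells with (green) and without (purple) a UMI of Plvap or Emcn, in the control (left) and case library (right), with exact 95% Poisson intervals. In both libraries Cdh5 is higher and Gja4 lower in cells with Plvap or Emcn, and Aqp1 is higher there in the case library, at 629 against 185 CPM.

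Genes of lymphatic ECs were present in ECs of both libraries, some of them mainly in the case group. Prox1, the transcription factor that defines lymphatic ECs, or the hyaluronan receptor Lyve1 was found in 28 case ECs and in 1 control EC that had passed the endothelial gate. Of the 28 case cells 22 also held Plvap or Emcn, and Aqp1 was at 898 CPM in the 28. Of the other lymphatic markers, Ccl21 was at 0 in the ECs of both libraries, and Mmrn1 and Flt4 were found in both. Mmrn1 was at 171 CPM in control and 170 in case ECs, in 30.4% and 18.1% of cells. Flt4 was found in 8.93% of control and 6.43% of case ECs. With the cells that held Prox1 or Lyve1 left out, the log2 change of Aqp1 was 0.21 (−0.11 to 0.54), that of Emcn 1.32 (0.63 to 2.08) and that of Plvap 0.80 (0.41 to 1.22). Within the case group Aqp1 still stood at 516 CPM with Plvap or Emcn and 176 without, a log2 difference of 1.55 (1.21 to 1.90). The 14 case cells of the lymphatic gate, which are not among the ECs here, had Cdh5 at 494 CPM, Aqp1 at 293 and Sox17 at 30.9, on 2 UMIs.

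Clustering of all cells without the 10 genes gave 2 endothelial clusters, which separated the genes in a similar way. Cluster 9, with 55 control and 160 case cells, was led by Cbln2, Isl1, F5, Linc00176, Bmp6 and the arterial gap junction gene Gja5. Cluster 11, with 10 control and 158 case cells, was led by AABR07005821.1, the fatty acid carrier Fabp4, the adhesion receptor Sele, Lrg1 and Ccl21, and includes cells of the lymphatic gate. Plvap was at 6.12 CPM in case cells of cluster 9 and 546 in those of cluster 11, and Emcn at 4.90 and 236. Cdh5 was at 278 and 966 CPM and Aqp1 at 190 and 535. Gja4 was at 46.5 and 16.2, Bmx at 29.4 and 0, and Sox17 at 219 and 128. Efnb2 (250 and 262 CPM) and Mecom (134 and 124) had intervals that overlapped between the 2 clusters. In cluster 9, which holds most control ECs, Cdh5 was at 211 CPM (171 to 258) in the control and 278 (243 to 317) in the case group. Efnb2 was at 224 (183 to 272) and 250 (217 to 287). The intervals of both genes overlapped, but they are intervals of single levels and not of the ratio used elsewhere. Ratios within clusters were given no interval, so the overlap does not place either change within counting error. Cldn5 was at 253 (209 to 304) and 142 (117 to 170), and Mecom at 74.8 (51.8 to 105) and 134 (110 to 161). With 10 control cells, cluster 11 gave no usable comparison between the libraries.

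Other genes of the same kinds of ECs were read from lists of arterial, venous, capillary and junction genes. Of 14 arterial genes 8 were over the minimum, with a median log2 change of −0.49, and 1 was higher and 1 lower. Gja5 (connexin 40), the partner of Gja4 in arterial gap junctions, went from 378 to 152 CPM (−1.31, −1.63 to −0.99). The chemokine receptor Cxcr4 went from 7.04 CPM on 3 UMIs to 124 on 143 (4.14, 2.57 to 6.44). Its UMIs in case ECs lay mainly in cells with Plvap or Emcn, at 270 against 23.5 CPM. Of 3 venous genes over the minimum 1 was higher, Nrp2, a co-receptor for VEGF-C, from 25.8 to 119 CPM (2.21, 1.32 to 3.24). Cxcr4 and Nrp2 passed the minimum only through the case group, so their direction was set in part by the filter.

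Of 8 capillary genes listed 3 were over the minimum, and these were higher in case ECs. Esm1 and Rgcc passed the minimum only through the case group, so their direction was set in part by the filter. Fabp4 went from 235 to 612 CPM (1.38, 1.08 to 1.70), Rgcc from 30.5 to 72.1 (1.24, 0.39 to 2.21) and Esm1, a proteoglycan of angiogenic tip cells, from 7.04 to 175 (4.63, 3.07 to 6.92). A single control cell held 44 of the 100 control UMIs of Fabp4, and its change without that cell was not computed. Fabp4 and Esm1 lay mainly in different case ECs. Fabp4 was at 1357 CPM with Plvap or Emcn and 97.0 without, and Esm1 at 12.8 with and 287 without. Of 13 junction and identity genes over the minimum 1 was higher and 3 lower, with a median log2 change of −0.43. The ETS factor Fli1 was at 49.2 and 99.9 CPM (1.02, 0.34 to 1.77). The adhesion molecule Icam2 went from 624 to 159 CPM (−1.97, −2.25 to −1.69), the junction protein F11r from 227 to 80.8 (−1.49, −1.92 to −1.07) and the transcription factor Sox18 from 75.0 to 37.4 (−1.01, −1.70 to −0.30). Fli1 passed the minimum only through the case group and Sox18 only through the control group, with the same limit on their direction. For scale, the 3 largest changes of each direction in ECs were Esm1, Cxcr4 and Akr1b10 (3.70), and Spp1 (−5.00), Linc00176 (−3.35) and Mfap5 (−3.20). Each of these also passed the minimum only through the group where it was higher.

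**Figure D4:**
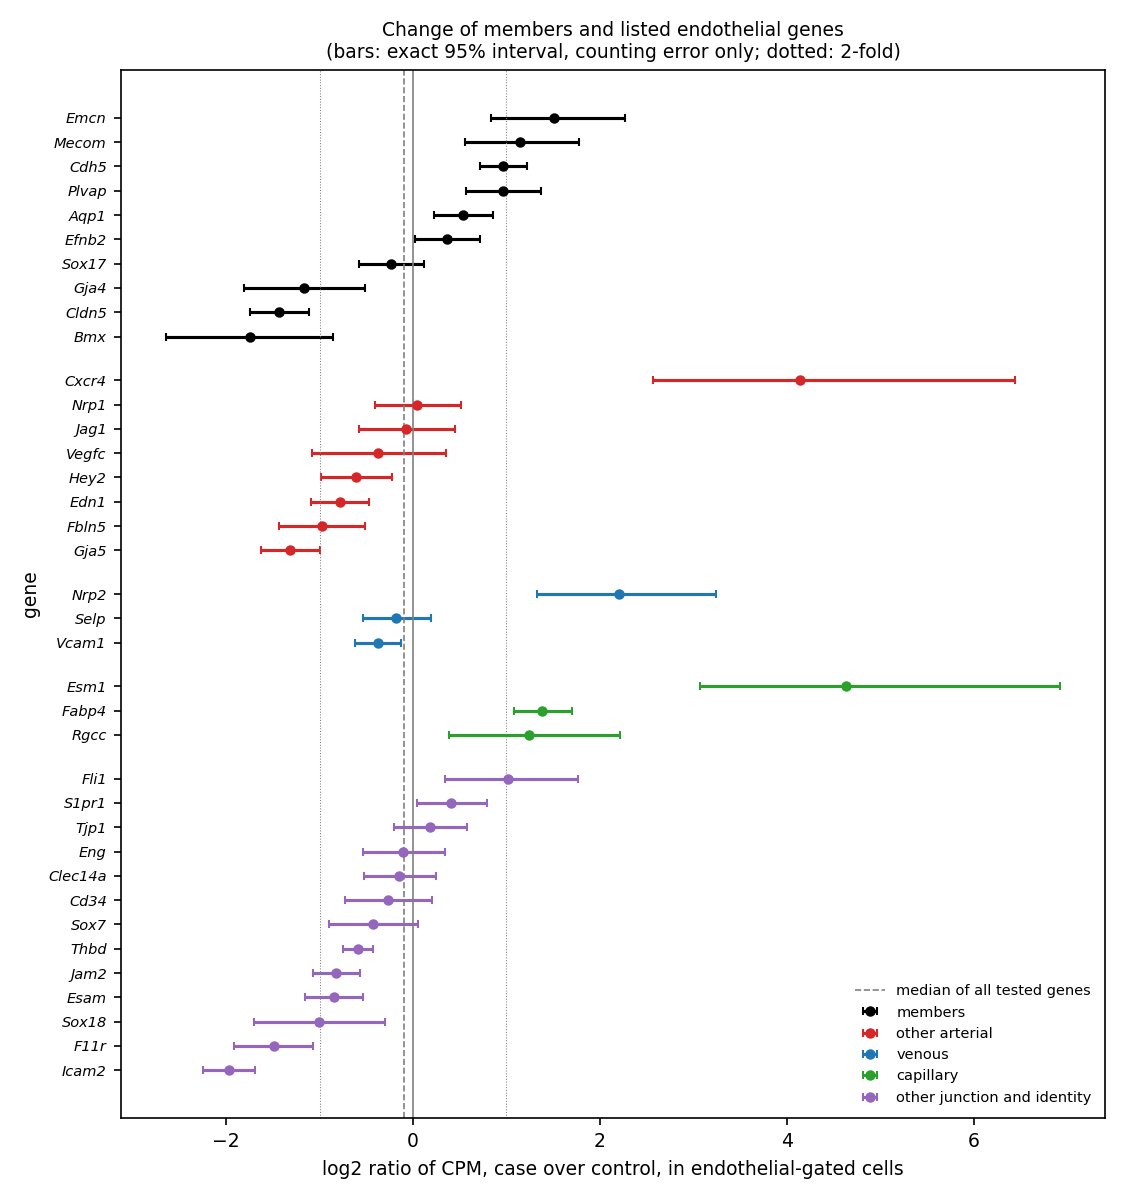
Log2 ratio of CPM, case over control, in endothelial-gated cells for the 10 genes (black) and for the genes of 4 other lists over 50 CPM (colours), with exact 95% intervals for counting error. The dashed line is the median of all 2712 genes, −0.10, and the dotted lines mark 2-fold. Emcn, Mecom, the 3 capillary genes, the arterial gene Cxcr4, the venous gene Nrp2 and Fli1 lie right of the 2-fold line. Cldn5, Gja4, Bmx, Gja5, Icam2, F11r and Sox18 lie left of the opposite one.

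Genes with the most similar pattern over the 5 classes of both libraries were looked for among 4919 genes with at least 50 CPM in some class, by Pearson's r of log2(CPM + 10) over 10 points. The points of a library share its depth, so r is given as a description. For genes nearly restricted to ECs, the points of the other classes lie near the floor set by the added 10. Their r with any other such gene is then close to 1 and rests mainly on the endothelial points. Closest to Cdh5 were AABR07001389.1 and Cyyr1 (r = 0.999 for each), to Cldn5 Cbln2 and Mall, and to Sox17 Selp and the gate marker Mmrn1. Emcn was closest to Adgrl4 and Myct1, and Plvap to Spns2 and AABR07001389.1. For Bmx the closest genes were Rgs5 and Ptprr (r = 0.998 and 0.997), and Rgs5 went from 267 to 66.1 CPM in ECs. Of the genes shared with VSMCs or fibroblasts, Aqp1 and Mecom had the same 2 closest genes, the chemokine Cx3cl1 and the caveolar gene Cav1. Efnb2 was closest to Itpr1 and Tspan12, and Gja4 to Mbnl1 and Grk5 (r = 0.971 and 0.966).

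Some UMIs of these genes lay outside the single-class gates. In the 108 control cells that passed both the smooth muscle and the fibroblast gate, Cdh5 was at 38.8 CPM (24.0 to 59.4), on 21 UMIs in 15 cells, and Plvap at 11.1 on 6 UMIs. Control VSMCs had 1.15 and 0.382 CPM of these genes. Emcn and Cldn5 were at 0 in the same 108 cells, which allows up to 5.55 CPM, and Sox17 was counted once. The 58 case cells of this kind held 0 UMIs of Cdh5 and of Plvap.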

How the data were processed

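For both libraries the authors deposited 1 table of UMI counts of each gene in each barcode, made with Cell Ranger 3.1.0 on the rat build Rnor_6.0 per the submitters' processing notes, which also name Seurat. Barcodes carry suffix 1 or 2. These were taken as case and control because their numbers, 5656 and 3321, equal those given for the groups before quality control. No column was left unused (0).

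From the counts, barcodes were kept with at most 20% mitochondrial UMIs, within 2 SD of their library's mean UMIs and genes and within 3 robust SD of a linear fit of log genes on log UMIs. Classes came from marker UMIs per 10000 (endothelial 10, smooth muscle 80, fibroblast 50, macrophage 30, Schwann 10, lymphatic 10, with at least 3 UMIs of 2 genes). The gate values were set after marker shares had been seen. Cells past several gates were kept apart, except that the lymphatic gate took precedence over the endothelial gate. The genes and lists were chosen with earlier results of these data known. Named are all 10 genes, the called genes of 4 lists, the 2 most similar genes of each and the 3 largest changes of each direction. Genes named as leading a cluster and lymphatic markers fall outside this rule. Scrublet marked 6 of 2742 control and 0 of 4930 case cells, too few to have worked, so doublets were left in. Clusters were by Leiden (leidenalg 0.10.2, scanpy 1.11.5). Other steps used Python 3.11.15, scipy 1.17.1 and, for TMM, edgeR 4.0.16 in R 4.3.3.

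Ratios of UMI sums had exact conditional binomial intervals and shares of cells Clopper-Pearson intervals. A count of 0 was taken to allow 3. Reads of near-identical genes cannot be separated in such counts. On simulated EC counts of 2648 genes, 88 of 100 genes changed 4-fold and 77 of 100 changed 2.5-fold were called. Of the intervals 95.3% held the true change. The simulated sums were drawn with the Poisson error that the intervals assume, so this share was set by the simulation. It does not show how the intervals hold for UMIs clumped in few cells.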

Additional observations from a re-analysis of the deposited data

Results flagged for a closer look

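Aqp1 had a log2 change of 0.53 in ECs and −0.10 in VSMCs, opposite in direction with 1 library per group. Gja4 had −1.16 in ECs and 0.30 in VSMCs, likewise opposite. The difference between the 2 classes was not tested for either gene.

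Cdh5 was at 38.8 CPM and Plvap at 11.1 CPM in control cells past both the smooth muscle and the fibroblast gate, a set outside the comparisons between groups, above the level in control VSMCs. These 108 cells had a median of 1540.5 UMIs, against 10808 in control VSMCs and 9709.5 in the 58 case cells of the same kind, which held neither gene. The part of depth in this was not tested.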

How the results depend on the processing

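Each library is 1 sample, so replicates could not be left out. No paired analysis was possible because each group is 1 pooled library and the result comes from no test. Among the 5 single-gate classes, every alternative kept the number of the 10 genes with their highest level in ECs at 10 among control cells, and for case cells it was 10 except after thinning to 1000 UMIs per cell, where it was 9. With TMM scaling 364 genes were higher and 115 lower in case ECs, so that higher genes were 76.0% of calls in place of 44.7%. Of the 10 genes 4 were then higher and 1 lower, with Gja4, at −0.89, under 2-fold. When clusters replaced the gates, Mecom was at 0.81 and Plvap, at 1.09, took its place past 2-fold. After thinning to 1000 UMIs, Emcn was at 1.39 (−0.27 to 3.74), Mecom at 1.35 (−0.32 to 3.70) and Gja4 at −1.83 (−4.05 to 0.50). After thinning to 1000 UMIs 112 genes were higher, and 1 of the 10 genes was lower. Of the 10 genes, those higher were then Cdh5, at 1.19 (0.49 to 1.98), and Plvap, at 1.03 (0.04 to 2.21). The thinned sums come from 1 random draw and the thinned shares of cells from another. Their intervals leave out the error of drawing. The share of control ECs with Plvap or Emcn at 1000 UMIs was 10.7% on 56 cells. It was 7.27% on the 55 cells left by a 10% mitochondrial limit. With a minimum of 20 CPM 401 genes were higher and 631 lower, and with no minimum 510 and 946. The share of case ECs with Plvap or Emcn was 33.3% when thinned to 2000 UMIs. ECs were 2.77% of control cells without barcodes under 2000 UMIs, and 4.44% of case cells with no cell filter, 4.24% with a stricter endothelial gate and 6.45% when clusters replaced the gates.

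Of 80 log2 changes of the 10 genes under the alternatives set at the start, 77 lay within the counting interval of the value reported and 3 outside it. The values without Scrublet doublets could not lie outside it for any of the 10 genes, since 0 ECs were marked as doublets. Other alternatives reused nearly the same ECs. The 10% mitochondrial limit left 55 control and 246 case ECs, and the limit of 2000 UMIs left 55 and 234, against 56 and 249. The 77 values are therefore not independent of the reported ones. Alternatives added after the data had been seen gave 46 more values, of which 11 lay outside the interval. Aqp1 turned direction, to −0.42, in cells without Plvap and Emcn. Sox17, at −0.23 with an interval that held 0, was at 0.15 in the same cells and at 0.03 with TMM. The cause was not tested. Removing the highest Scrublet scores (73 control and 223 case cells, 7 of them case ECs) kept all 10 within their intervals, with Plvap at 1.00 and so past 2-fold. Depth limits Emcn, Bmx, Mecom and Gja4 most, with 20, 26, 28 and 39 control UMIs. Near the endothelial gate, at 8 to 12 marker UMIs per 10000 on either side of it, lay 29 case cells, of which 14 were inside, and 1 control cell, which was outside.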
